A study of Mus musculus with 4 samples.

Results

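The expression of 10 genes of the hyaluronan-rich matrix of the embryonic heart was followed in single-cell libraries of mouse hearts at E10.5, a stage at which the cushions are being populated by cells. The genes were Has2, Vcan, Hapln1, Cd44, Adamts1, Adamts9, Postn, Tgfbi, Lum and Fn1, chosen by name, and all 10 were found among the 32285 genes of the count files. There were 2 libraries from wild-type hearts (Wt1 and Wt2) and 2 from hearts homozygous for the Cyp51 I383V allele (Ho1 and Ho2), all on the C57BL/6J strain. Cyp51 encodes a demethylase of the cholesterol synthesis pathway, and the allele was introduced by CRISPR/Cas9 as a germline knock-in, so that every cell of an Ho embryo carried it and no effect can be assigned to a single heart cell type. No drug was given, and the number of hearts per library is not given in the sources used here. Each value is a count of mRNA molecules, tagged at capture with a unique molecular identifier (UMI), from a droplet assay that reads the 3′ end of transcripts.

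The early heart tube consists of an outer layer of cardiomyocytes and an inner layer of endocardial cells, separated by the cardiac jelly, a swollen extracellular matrix built on the long sugar chain hyaluronan. Where valves will form, endocardial cells lose their epithelial character, enter the jelly and become cushion mesenchyme, which later remodels its matrix into fibrous valve tissue. Has2 makes the hyaluronan, the proteoglycan Vcan (versican) binds to it, the link protein Hapln1 holds that complex together, Cd44 is a cell surface receptor for hyaluronan, and the proteases Adamts1 and Adamts9 cleave versican.

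The deposited files held 109893733 UMIs in 10320 barcodes for Wt1, 117034633 in 8212 for Wt2, 127018819 in 7999 for Ho1 and 107377100 in 7058 for Ho2. After limits on cells and removal of likely doublets, 8908, 7154, 6980 and 6126 cells were used, with medians of 10561, 14215.5, 15658 and 15831.5 UMIs per cell. Here and below, 4 values in a row stand for Wt1, Wt2, Ho1 and Ho2, in that order. Of 29069 distinct barcodes, 98 occurred among the used cells of more than 1 library. Library Ho1 stood apart from the other 3. Xist, transcribed from the inactive X chromosome of females, was at 0.0453, 0.0377, 248 and 0 CPM (counts per 1000000 UMIs) over the 6 groups of cells defined next, and the Y-linked gene Ddx3y was at 25.98, 28.7, 0 and 29.1 CPM, so that Ho1 differed in sex from the others. Ho1 also held more globin RNA of red blood cells among the Cdh5 cells described next, where Hbb-y was at 97.3, 82.4, 373 and 102 CPM, Hba-x at 1.61, 2.94, 373 and 5.25 CPM and Hba-a1 at 0.713, 0.948, 106 and 1.78 CPM. In the Myl2 cardiomyocyte gate Hba-x was at 1.84, 1.51, 123 and 2.42 CPM, and in the cardiomyocyte gate without Myl2 it was at 1.20, 4.37, 98.7 and 6.37 CPM. In the Twist1 gate it was Wt1 that stood apart, with 113, 2.57, 9.04 and 2.91 CPM of Hba-x. Where the fold change of a gene between genotypes is described, its value without Ho1 is given as well. Nothing in the labels states that the 2 libraries of a genotype came from separate litters, and p-values measure only the spread between these libraries.

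Cells were assigned to gates, that is, groups defined by the UMIs of 1 or 2 marker genes, none of them among the 10 matrix genes. Cells with at least 10 UMIs of Tnnt2, a sarcomere gene, per 10000 were split by Myl2, a marker of ventricular muscle, at the same limit. The Myl2 cardiomyocyte gate held 693, 1282, 1813 and 968 cells. All 7 cardiomyocyte markers of the list used were raised in it, that is, at least 2-fold above their mean over the other gates. So were 3 of 3 ventricular, 2 of 4 atrial and 1 of 5 epicardial markers. The cardiomyocyte gate without Myl2 held 880, 1136, 1355 and 1226 cells. It had 4 of 4 atrial, 6 of 7 cardiomyocyte, 2 of 5 epicardial and 1 of 4 epithelial markers raised. Cardiomyocyte markers summed to a mean of 41607 CPM in it and 31205 CPM in the Myl2 gate, and atrial markers to 9527 and 9301 CPM. Cells with at least 2 UMIs of Cdh5, an endothelial cadherin, formed the Cdh5 gate of 768, 1177, 1194 and 705 cells. It had 6 of 6 endothelial and 2 of 2 endocardial markers raised, and also 4 of 4 blood, 2 of 4 epithelial and 2 of 4 macrophage markers. The remaining gates were mesenchymal. Cells with at least 2 UMIs of Twist1, a transcription factor of cushion mesenchyme, formed the Twist1 gate of 1854, 1103, 894 and 846 cells. In it 4 of 7 cushion, 2 of 6 pharyngeal and 1 of 5 epicardial markers were raised. The Stmn4 gate, also with at least 2 UMIs of its gene, held 280, 326, 219 and 132 cells. It had 6 of 7 cushion and 3 of 5 outflow markers raised, and also 2 of 6 pharyngeal, 1 of 4 epithelial and 1 of 4 macrophage markers. The Crabp1 gate, with at least 10 UMIs of Crabp1 per 10000, had all 6 pharyngeal markers and 2 of 7 cushion markers raised. Also raised in it were 2 of 5 outflow, 2 of 5 epicardial, 1 of 4 epithelial and 1 of 4 macrophage markers. It held 767, 40, 7 and 44 cells, so that it rested mostly on Wt1, and its Ho1 sum had only 49892 UMIs. UMIs were summed per gate and library, which gave 24 sums. In such sums, fewer expressing cells and less RNA per cell cannot be told apart.

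**Figure D1:**
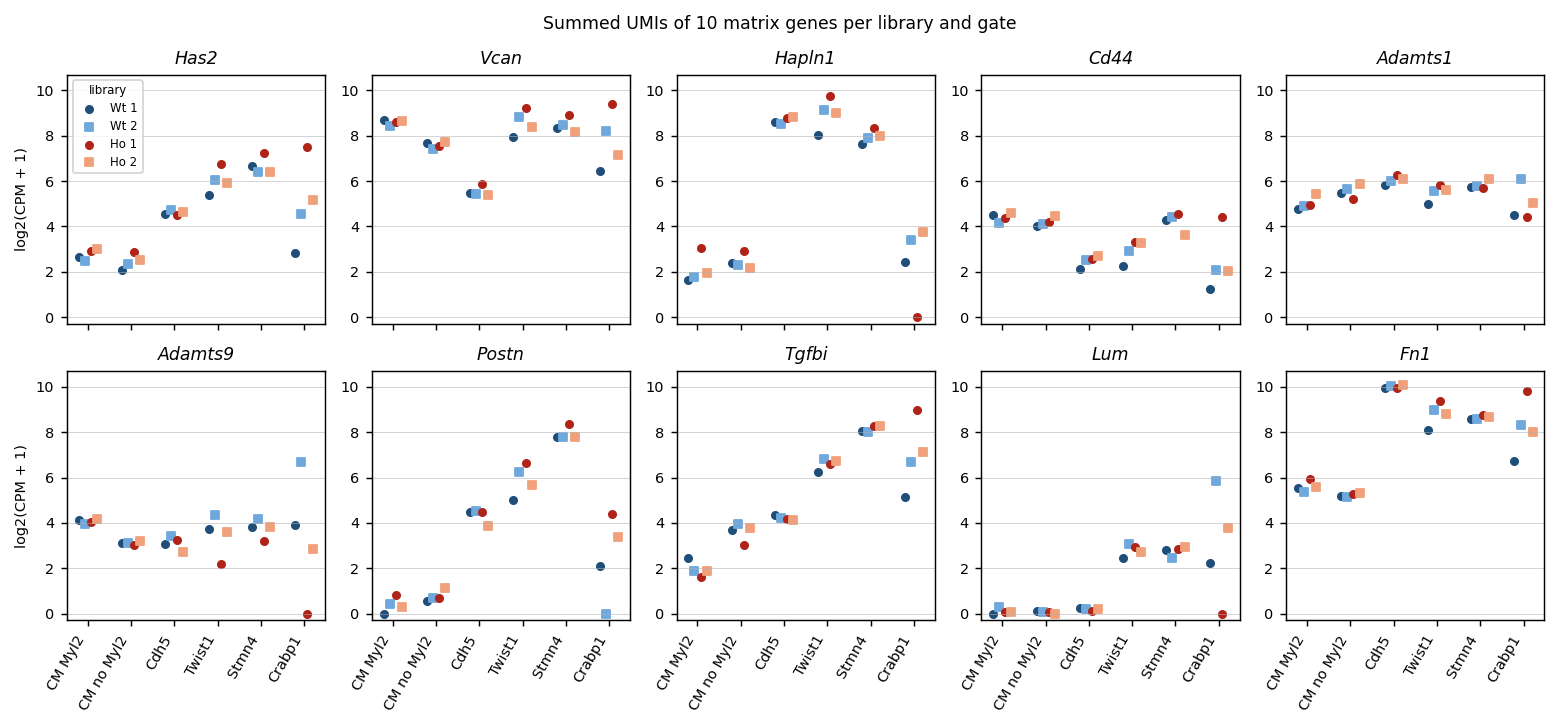
Levels of the 10 matrix genes in each of the 6 gates, 1 panel per gene, as log2(CPM + 1) on the vertical axis and 1 point per library. Vcan was high in the Myl2 cardiomyocyte gate (340 to 410 CPM) and low in the Cdh5 gate (40.3 to 56.8 CPM), Hapln1 had the reverse pattern, and the libraries spread most in the Twist1 and Crabp1 gates.

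Has2 (chr15:56665627-56694539 on GRCm38), the enzyme that extrudes hyaluronan from the cell surface, was highest in the Stmn4 and Twist1 gates. Its level was 101, 84.1, 149 and 84.4 CPM in the Stmn4 gate and 41.0, 65.5, 107 and 59.3 CPM in the Twist1 gate. In the Cdh5 gate it was 22.4, 25.3, 21.4 and 24.1 CPM. Both cardiomyocyte gates were lower, with 5.27, 4.57, 6.61 and 7.10 CPM in the Myl2 gate. The 4 libraries of the Cdh5 gate thus lay within a narrow band that overlapped neither the cardiomyocyte gates nor the Twist1 gate, whereas the ranges of the Stmn4 and Twist1 gates overlapped. Cells with at least 2000 UMIs were thinned to that number. Fewer were left out (for example 134, 173, 136 and 55 Myl2 cardiomyocytes and 9, 6, 4 and 4 Cdh5 gate cells). Of the thinned cells, 18.2% ± 4.51 (SD, n = 4) in the Stmn4 gate, 11.0% ± 4.45 in the Twist1 gate and 5.30% ± 0.663 in the Cdh5 gate kept a Has2 UMI, against 1.20% ± 0.483 of Myl2 cardiomyocytes. In the small Crabp1 gate Has2 ranged from 5.99 CPM in Wt1 to 180 CPM in Ho1, the latter from 9 UMIs.

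Vcan, the large chondroitin sulfate proteoglycan of the jelly, and its partner Hapln1 had opposite levels in the Myl2 cardiomyocyte and Cdh5 gates. Vcan was at 410, 340, 387 and 407 CPM in the Myl2 cardiomyocyte gate and at 205, 172, 187 and 213 CPM in the cardiomyocyte gate without Myl2. In the Cdh5 gate Vcan fell to 42.9, 41.7, 56.8 and 40.3 CPM, the lowest of the 6 gates, with no overlap with the next one. Hapln1 was at 393, 366, 433 and 452 CPM in the Cdh5 gate. Hapln1 in the Myl2 cardiomyocyte gate was at 2.08, 2.45, 7.26 and 2.85 CPM. Thus the Myl2 cardiomyocyte and Cdh5 gates each held 1 of the 2 partners at a high level and the other at a low one, in all 4 libraries. Both were high together in the Twist1 and Stmn4 gates. In the Twist1 gate Vcan was at 248, 450, 597 and 336 CPM and Hapln1 at 265, 566, 870 and 508 CPM. In the Stmn4 gate the values were 321, 350, 482 and 289 CPM for Vcan and 199, 236, 328 and 249 CPM for Hapln1. Wt1 was lowest and Ho1 highest in the Twist1 gate for both genes. Hapln1 was nearly absent from the Crabp1 gate, with 32, 3, 0 and 4 UMIs, while Vcan was found there at 85.7, 297, 681 and 141 CPM.

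Counted as cells with a UMI after thinning to 2000 UMIs, 43.4% ± 5.44 (SD, n = 4) of Myl2 cardiomyocytes held Vcan and 0.931% ± 0.829 held Hapln1. In the Cdh5 gate 7.71% ± 1.25 of cells held Vcan and 51.0% ± 3.78 held Hapln1. Median depths were similar, at 13412 to 16710 UMIs per cell in the Cdh5 gate and 11830 to 19920.5 in the Myl2 cardiomyocyte gate. Free RNA in the droplets was not measured, and the low share of each pair is not read as expression. Without thinning, the exact 95% interval for Hapln1 in Cdh5 gate cells of Ho1 was 96.4% to 98.3%, and it was 7.35% to 9.99% in its Myl2 cardiomyocytes. Such intervals cover counting error only. Ho1 does not stand for the other libraries here. After thinning, 0.358%, 0.451%, 2.15% and 0.767% of Myl2 cardiomyocytes held Hapln1. In 24 sums, log2 CPM of Vcan and Hapln1 had a Pearson correlation of −0.29, a description over sums that share 4 libraries.

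**Figure D2:**
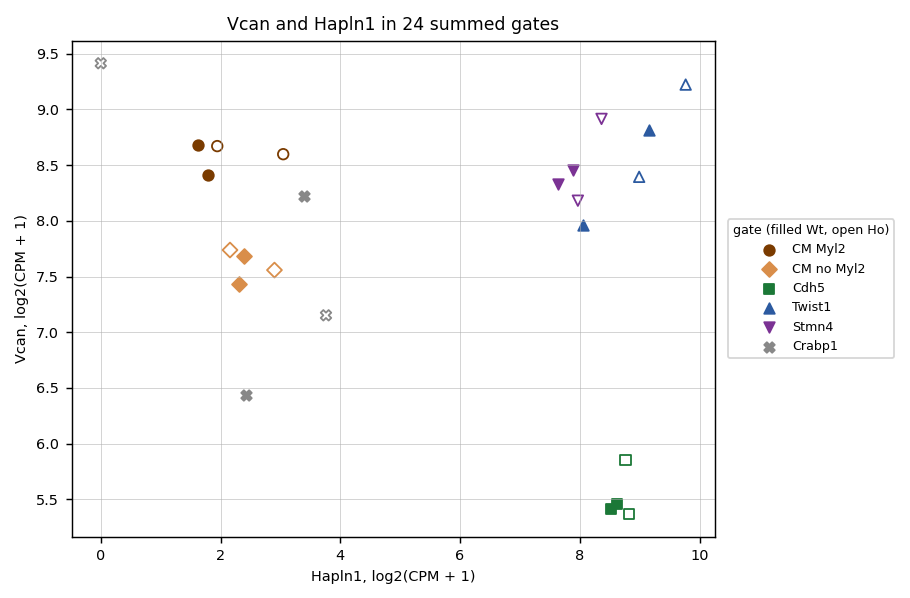
Vcan against Hapln1, both as log2(CPM + 1), in the 24 sums of 6 gates and 4 libraries, with filled symbols for Wt and open symbols for Ho. Cardiomyocyte gates sit at the upper left, the Cdh5 gate at the lower right with Hapln1 at 366 to 452 CPM, and the Twist1 and Stmn4 gates at the upper right.

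The 2 genes are neighbours. On GRCm38, in the GENCODE M21 annotation, Hapln1 spans chr13:89539796-89611652 on the plus strand and Vcan spans chr13:89655312-89742509 on the minus strand. Their 3′ ends face each other over a gap of 43659 bp that holds 0 annotated genes. Of the 10 genes, 7 were found in the RefSeq promoter table (GRCm38.p6). The 250 bases before the Vcan start are shown because the gene carries the contrast between cardiomyocytes and the Cdh5 gate. Those before the Postn start at the annotated beginning of the gene are shown because Postn carries the contrast between the mesenchymal gates described below. For Hapln1 and Tgfbi the corresponding window overlapped an annotated first exon, and its bases are not shown. Capitals mark the E-box letters CANNTG, which read the same on both strands and are the core that basic helix-loop-helix factors such as Twist1 bind.
Vcan, chr13:89742513-89742762, minus strand: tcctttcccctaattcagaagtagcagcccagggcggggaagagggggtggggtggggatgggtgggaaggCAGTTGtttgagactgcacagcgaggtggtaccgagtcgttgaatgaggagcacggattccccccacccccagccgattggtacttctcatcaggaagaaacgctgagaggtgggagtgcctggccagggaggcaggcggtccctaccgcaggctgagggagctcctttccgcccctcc
Postn, chr3:54360857-54361106, plus strand: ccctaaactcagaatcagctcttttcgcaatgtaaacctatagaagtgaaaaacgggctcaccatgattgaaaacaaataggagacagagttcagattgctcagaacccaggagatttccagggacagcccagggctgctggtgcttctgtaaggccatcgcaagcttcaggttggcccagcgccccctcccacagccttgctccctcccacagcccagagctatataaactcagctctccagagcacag
The Vcan window held 1 match and the Postn window 0. Of 32851 promoter windows of this length, 66.2% held at least 1 match.

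Cd44 (chr2:102811141-102901665), the hyaluronan receptor, was high in both cardiomyocyte gates and the Stmn4 gate. It was at 21.6, 17.0, 19.9 and 23.2 CPM in the Myl2 cardiomyocyte gate and at 15.1, 16.2, 17.1 and 20.9 CPM in the cardiomyocyte gate without Myl2. In the Stmn4 gate it was at 18.4, 20.3, 22.7 and 11.4 CPM, with Ho2 below every cardiomyocyte value and the other 3 libraries among them. The Twist1 gate had 3.72, 6.56, 8.96 and 8.52 CPM and the Cdh5 gate 3.39, 4.69, 4.96 and 5.56 CPM, below every cardiomyocyte value. Over the 24 sums, Pearson's r of log2 CPM was 0.62 with Vcan and −0.30 with Hapln1, as a description. Outside the 6 gates, cells with at least 2 UMIs of the macrophage gene Fcer1g, only 22, 37, 56 and 11 of them, had 25.4, 46.8, 33.4 and 24.4 CPM.

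The versican-cleaving proteases had flatter patterns. Adamts1 (chr16:85793827-85803113) was highest in the Cdh5 gate, with 55.7, 63.7, 76.9 and 67.8 CPM, and was at 26.1, 28.5, 29.9 and 42.3 CPM in the Myl2 cardiomyocyte gate, with no overlap between these 2 gates. Each of the gates between them overlapped its neighbour in the order of levels. Adamts9 (chr6:92772699-92943492) was at 16.5, 14.6, 15.6 and 16.8 CPM in the Myl2 cardiomyocyte gate and at 7.73, 7.55, 7.16 and 8.33 CPM in the cardiomyocyte gate without Myl2. These 2 gates did not overlap. In the Twist1 gate Adamts9 was at 12.3, 19.3, 3.48 and 11.1 CPM, with Ho1 lowest. The highest mean of Adamts9 was that of the Crabp1 gate, from 103, 32, 0 and 2 UMIs, and rested on the 101 CPM of Wt2.

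Fn1 (fibronectin, chr1:71585520-71653200), the adhesive glycoprotein on which migrating cells move, was at its highest in the Cdh5 gate, with 984, 1053, 982 and 1095 CPM. It was at 270, 504, 661 and 445 CPM in the Twist1 gate and at 386, 377, 438 and 409 CPM in the Stmn4 gate. The Myl2 cardiomyocyte gate had 45.9, 40.3, 59.9 and 46.4 CPM. The Cdh5 gate overlapped no other gate, and the Twist1 and Stmn4 gates overlapped each other. After thinning, 80.8% ± 3.30 (SD, n = 4) of Cdh5 gate cells held a Fn1 UMI, against 51.0% ± 14.2 in the Twist1 gate and 8.47% ± 1.74 in the Myl2 cardiomyocyte gate. Among cells outside the 6 gates with at least 2 UMIs of the epicardial gene Upk3b (87, 118, 88 and 151 cells), Fn1 was at 651, 666, 551 and 565 CPM and Hapln1 at 121, 154, 182 and 153 CPM.

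Postn (periostin, chr3:54361109-54391037) and Tgfbi (chr13:56609523-56639562), related secreted proteins that bind collagen and integrins, had their highest mean levels in the Stmn4 gate. Postn was at 221, 217, 332 and 219 CPM there and at 31.4, 74.2, 98.4 and 50.6 CPM in the Twist1 gate. The Cdh5 gate had 21.05, 22.0, 21.5 and 13.6 CPM. Among Myl2 cardiomyocytes only 0, 7, 25 and 4 UMIs of Postn were counted. None of these gates overlapped another in Postn. Tgfbi was at 261, 260, 305 and 311 CPM in the Stmn4 gate, at 74.7, 111, 94.5 and 104 CPM in the Twist1 gate and at 19.1, 17.3, 17.2 and 16.5 CPM in the Cdh5 gate. The Crabp1 gate, at 34.5, 101, 501 and 138 CPM of Tgfbi, overlapped the Stmn4 gate through its 25 UMIs in Ho1, and held only 24, 0, 1 and 3 UMIs of Postn. Of the thinned cells of the Stmn4 gate, 34.5% ± 8.82 (SD, n = 4) held Postn and 40.1% ± 6.43 held Tgfbi, and in the Twist1 gate the shares were 10.4% ± 4.59 and 15.4% ± 2.68.

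Lum (lumican, chr10:97565128-97572703), a small leucine-rich proteoglycan of collagen matrices, was the sparsest of the 10 genes. It was at 4.54, 7.51, 6.55 and 5.53 CPM in the Twist1 gate and at 5.97, 4.41, 6.20 and 6.67 CPM in the Stmn4 gate. Among Myl2 cardiomyocytes 0, 5, 2 and 1 UMIs were counted, and in the Cdh5 gate 2, 3, 2 and 2. After thinning, 1.26% ± 0.269 (SD, n = 4) of Twist1 gate cells held a Lum UMI. The Crabp1 gate had the highest mean, from 27, 18, 0 and 4 UMIs, and ranged from 0 to 56.9 CPM. Upk3b cells had 13.2, 21.3, 12.1 and 11.0 CPM of Lum. Cells with at least 2 UMIs of the epithelial gene Epcam had 35.7 CPM in Wt1, where 412 such cells were found, and 0 UMIs of Lum in Wt2 and Ho2. Ho1 had 0 such cells.

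Differences between gates were tested in 1 model over all 24 sums, with the library as a block and 14011 genes tested (edgeR, adjusted p under 0.05). Gates of different lineages differ in very many genes, so counts of matrix genes are given beside the share of all genes. Between the Twist1 and the Cdh5 gate, 7 of the 10 matrix genes passed, where 51.9% of all genes did, and their median log2 fold change was 0.89 against 0.01 over all genes. Higher in the Twist1 gate were Lum (log2 fold change 5.31, SE 0.49), Vcan (3.02, SE 0.22), Tgfbi (2.33, SE 0.23), Postn (1.52, SE 0.19) and Has2 (1.37, SE 0.20), and lower were Fn1 (−1.30, SE 0.19) and Adamts1 (−0.68, SE 0.13). The adjusted p of Vcan was 4.99e-11. Hapln1 did not pass (0.20, SE 0.16, adjusted p 0.318), with a value of −0.012 without Ho1 and of 0.46 without Wt1, where it did pass (adjusted p 0.00694). With stricter gates it also passed (0.51, adjusted p 0.00164). Cd44 and Adamts9 did not pass either.

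Against the Myl2 cardiomyocyte gate, 8 matrix genes passed in the Twist1 gate, where 71.3% of all genes did. The differences in level were largest for Postn (6.86, SE 0.31), Hapln1 (6.79, SE 0.23) and Lum (5.56, SE 0.51), the last against only 8 UMIs in the 4 cardiomyocyte sums. Tgfbi, Has2 and Fn1 were also higher in the Twist1 gate, by 4.83 (SE 0.29), 3.18 (SE 0.23) and 2.91 (SE 0.21). Cd44 was lower (−1.94, SE 0.17), as was Adamts9 (−0.86, SE 0.28), which lost its call without either Ho library (adjusted p 0.0506 and 0.0526). Vcan did not pass (−0.33, SE 0.20, adjusted p 0.135). In the Cdh5 against the Myl2 cardiomyocyte gate 9 of 10 passed, with a background of 72.3%. The opposite placement of the 2 partners was the widest contrast there, with Hapln1 higher by 6.59 (SE 0.23) and Vcan lower by −3.35 (SE 0.22) in the Cdh5 gate. Fn1 (4.21, SE 0.22) and Postn (5.34, SE 0.34) were higher and Cd44 (−2.34, SE 0.17) was lower.

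Within mesenchyme, 5 of 10 passed between the Stmn4 and the Twist1 gate, where 26.9% of all genes did. Higher in the Stmn4 gate were Postn (2.07, SE 0.18), Tgfbi (1.62, SE 0.21), Cd44 (1.55, SE 0.20) and Has2 (0.71, SE 0.20), and lower was Hapln1 (−1.02, SE 0.17). The call of Has2 was lost with DESeq2 (adjusted p 0.144) and without the library block (0.0925). Between the Crabp1 and the Twist1 gate 6 of 10 passed, all lower in the Crabp1 gate, with a background of 11.7%. Hapln1 fell by 6.27 on the log2 scale (SE 0.37) and Postn by 3.71 (SE 0.45). Has2, Vcan, Cd44 and Fn1 also passed (−2.34, −1.28, −1.72 and −1.04), but these 4 calls were lost without Wt1, where the values were −0.94, −0.86, −0.97 and −0.70. Cd44 also lost its call without Wt2 (adjusted p 0.0724) and with stricter gates (0.0895), and Fn1 with DESeq2 (0.0942), without Wt2 (0.0535) and without Ho2 (0.073). Of all genes called in that contrast, 381 were higher and 1253 lower with TMM normalization and 534 and 1053 with RLE normalization. Between the cardiomyocyte gates, 4 of 10 passed, where 33.9% of all genes did. Tgfbi (1.96, SE 0.32) and Adamts1 (0.44, SE 0.13) were higher without Myl2, and Adamts9 (−1.19, SE 0.28) and Vcan (−1.12, SE 0.20) were lower. The call of Adamts1 was lost without Wt2 (adjusted p 0.103), without Ho2 (0.0566) and without the library block (0.0811).

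**Figure D3:**
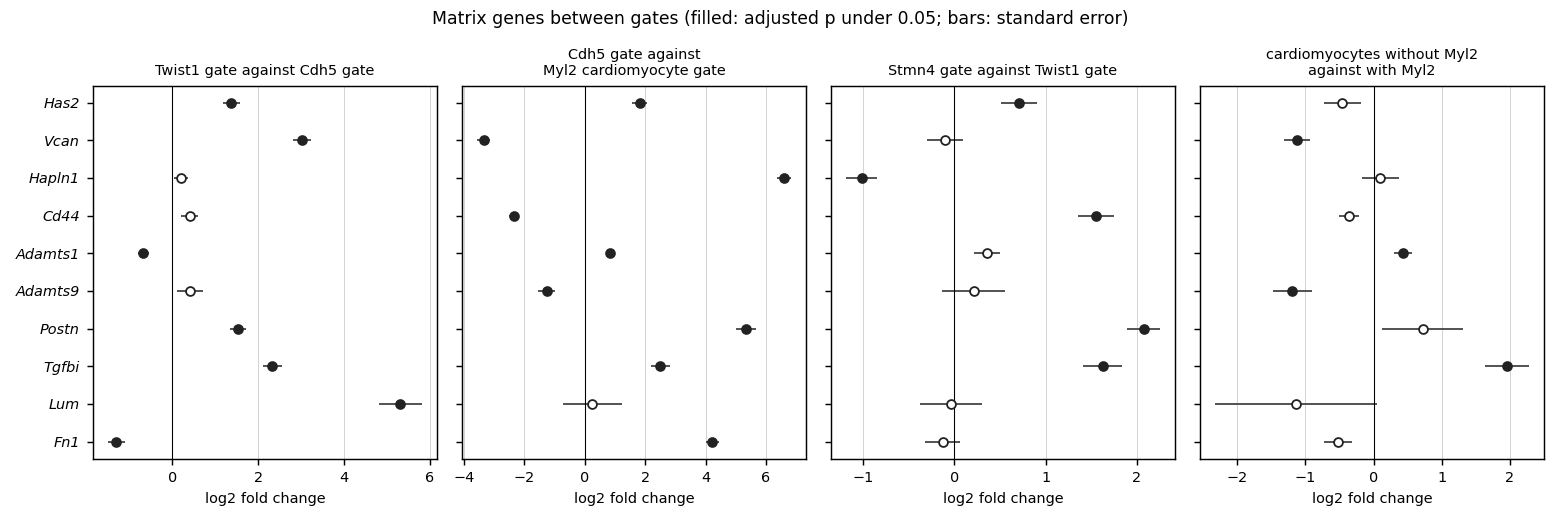
Log2 fold changes of the 10 matrix genes between gates, with standard errors as bars and filled points where the adjusted p was under 0.05. The panels compare the Twist1 with the Cdh5 gate and the Cdh5 with the Myl2 cardiomyocyte gate. They also compare the Stmn4 with the Twist1 gate and the cardiomyocyte gates with each other. Hapln1 lies near 0 between the Twist1 and Cdh5 gates (0.20) and to the left between the Stmn4 and Twist1 gates (−1.02). Vcan lies at −3.35 between the Cdh5 and Myl2 cardiomyocyte gates.

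Other genes of the same matrix were taken as 6 lists, whose counts are to be read against 51.9% of all genes called between the Twist1 and Cdh5 gates. Of the genes that make the precursors of hyaluronan or degrade it, 1 of 8 tested was higher in the Twist1 than in the Cdh5 gate and 3 were lower. Ugdh, which makes the UDP-glucuronate from which hyaluronan is built, was higher (1.53, SE 0.10), and the cell surface hyaluronidase Cemip2 was lower (−2.37, SE 0.11). Of hyaluronan-binding genes 1 of 5 was higher and 3 were lower, led by the endothelial receptor Lyve1 (−5.0, SE 0.31) and by Tnfaip6 (3.67, SE 0.19), which transfers proteins onto hyaluronan. The list of ADAMTS proteases, other metalloproteases and their inhibitors split into 7 higher and 4 lower of 13, with Adamts20 (3.31, SE 0.37) and Adamts8 (−3.54, SE 0.42) at the ends. Small leucine-rich proteoglycans split evenly, with 2 higher and 2 lower of 4, among them Fmod (3.51, SE 0.63) and Ecm2 (−2.81, SE 0.40).

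Of matricellular and fibre glycoproteins, 11 of 16 were higher in the Twist1 gate and 4 lower, and integrins, the receptors of Fn1, Postn and Tgfbi, had 5 of 9 higher and 2 lower. Spp1 (3.77, SE 0.69), Fbln2 (2.52, SE 0.15), Itgb8 (4.07, SE 0.30) and Itgb5 (3.04, SE 0.12) had the largest changes among those that passed. Between the Stmn4 and Twist1 gates, where 26.9% of all genes passed, 7 of the 16 glycoproteins were higher and 2 lower, and 6 of the 9 integrins were higher and 1 lower. Hyaluronan-binding genes went the other way, with 1 of 5 higher and 3 lower. Against the Myl2 cardiomyocyte gate, where 71.3% of all genes passed, the Twist1 gate had 6 of 8 genes of hyaluronan synthesis and turnover higher and 1 lower.

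The genes whose levels over the 24 sums were most like those of each matrix gene were found by Pearson's r of log2 CPM, as a description of sums that share libraries. For Fn1 they were the fibrillar collagen gene Col5a2 and Ebf1 (both r = 0.98), and for Postn they were S100a6 (0.97) and Sash1 (0.95). Tgfbi was most like Flna (0.97) and Sox9 (0.96), a transcription factor of cushion mesenchyme. Hapln1 was most like Cda (0.96) and Alg5 (0.95), Has2 like 2200002D01Rik and Lgals1 (both 0.95), and Vcan like Sipa1l1 (0.94) and Cacna2d1 (0.93). Lum (H2afv and Zfp637), Adamts9 (Rpgr and D2hgdh), Cd44 (Sorbs2, Plxna4) and Adamts1 (Xpnpep1, Taok3) had nearest genes at r between 0.87 and 0.93. Among the 10 genes themselves, Has2 was most like Tgfbi and Postn (both r = 0.85), and Postn and Tgfbi had r = 0.74.

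The second question was whether the Cyp51 allele changed these levels. With edgeR, 0 matrix genes passed between the 2 Ho and the 2 Wt libraries in any of the 6 gates, and DESeq2 also called 0. Unadjusted p-values under 0.05 were found for 3, 2, 2, 1, 3 and 3 matrix genes in the Myl2 cardiomyocyte, non-Myl2 cardiomyocyte, Cdh5, Twist1, Stmn4 and Crabp1 gates, of 8, 9, 9, 10, 10 and 4 that had enough counts to be tested. The share of all tested genes at that unadjusted threshold was 9.12%, 4.76%, 5.23%, 4.06%, 5.4% and 4.68%. After adjustment, in the same order, 0.0765%, 0.0298%, 0%, 0%, 0% and 0.0917% of all tested genes passed. Lum was not tested in the Myl2 cardiomyocyte, non-Myl2 cardiomyocyte and Cdh5 gates, and Postn was not tested in the first of these. A change that misses the threshold with 2 libraries a group is not shown to be absent. More matrix genes had positive than negative values, with 7 of 8, 8 of 9, 5 of 9, 9 of 10, 8 of 10 and 4 of 4 higher in Ho. The medians of their log2 fold changes were 0.21, 0.14, 0.07, 0.48, 0.26 and 1.74, and those of all genes 0.00, 0.00, 0.00, 0.01, 0.00 and −0.02. Without Ho1, 7 of 8, 7 of 9, 5 of 9, 6 of 10, 6 of 10 and 3 of 7 were higher, and the medians became 0.13, 0.14, 0.02, 0.16, 0.07 and −0.21. In the Crabp1 gate the genes tested also changed from 4 to 7 without Ho1, so that its values do not describe the same genes.

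Levels in normalized CPM, that is, CPM scaled by TMM within a gate, were higher in Ho1 and in Ho2 than in either Wt library for 3 of 8 matrix genes in the Myl2 cardiomyocyte gate (background 20.7% of all genes), 4 of 9 in the cardiomyocyte gate without Myl2 (17%), 3 of 9 in the Cdh5 gate (18%), 2 of 10 in the Twist1 gate (16.4%), 4 of 10 in the Stmn4 gate (17.4%) and 2 of 4 in the Crabp1 gate (17%). They were lower in Ho1 and in Ho2 for 1 (background 20.5%), 0 (16.2%), 0 (17.4%), 1 (16.1%), 1 (17.4%) and 0 (17.4%) of them. With 4 to 10 genes tested in a gate, these shares are coarse. In CPM without this scaling the order of the groups differed for Tgfbi and Fn1 in the Myl2 cardiomyocyte gate, Postn in the cardiomyocyte gate without Myl2 and Tgfbi in the Cdh5 gate. The levels given below between genotypes are normalized CPM unless they come from the Tbx20 split or describe the make-up of a gate.

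Hapln1 recurred among the genes with a small unadjusted p. In the Cdh5 gate its normalized level was 394, 356, 448 and 451 CPM, so that the Ho pair was the higher one with no overlap. The log2 fold change was 0.26 (SE 0.09, unadjusted p 0.0162, adjusted p 0.91 in edgeR), and it was 0.27 without Ho1. The globin genes Hbb-y, Hba-x and Hba-a1 were highest in Ho1 in this gate, as given above, and their part in the result was not tested. In the Stmn4 gate Hapln1 was at 200, 231, 337 and 250 normalized CPM. Here too the groups did not overlap, with a log2 fold change of 0.45 (SE 0.14, adjusted p 0.888) that was 0.21 without Ho1. In the Myl2 cardiomyocyte gate Hapln1 was at 2.14, 2.46, 7.37 and 2.73 normalized CPM, and the fold change of 1.16 (SE 0.37, adjusted p 0.372) became 0.22 without Ho1. Globin RNA was highest in Ho1 in that gate as well, and its part in the result was not tested. Apart from the Cdh5 gate, the size of the Hapln1 difference thus rested largely on Ho1.

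Tgfbi was at 262, 254, 314 and 312 normalized CPM in the Stmn4 gate, where the Ho libraries lay above the Wt libraries by more than either pair spread. Its log2 fold change there was 0.28 (SE 0.09, adjusted p 0.888), and it was 0.27 without Ho1. The cushion markers of the Stmn4 gate summed to 1247, 1203, 1390 and 1396 CPM, also higher in the Ho pair. The pharyngeal markers summed to 234, 210, 188 and 204 CPM, lower in the Ho pair. The outflow markers had no such order, at 5752, 6218, 4894 and 7415 CPM. The part of these markers in the differences of this gate was not tested. In the Myl2 cardiomyocyte gate Tgfbi was at 4.54, 2.64, 2.07 and 2.58 normalized CPM. The Ho pair was lower on this scale only, since without TMM scaling Ho2 (2.69 CPM) lay above Wt2 (2.64 CPM). The log2 fold change was −0.53 (SE 0.28, adjusted p 0.588), and −0.37 without Ho1. Whether the genotype effect differed among the 6 gates was tested as an interaction, in which 2 of 14011 genes passed (0.0143%) and 0 matrix genes. Tgfbi had the smallest p of the 10 (unadjusted 0.00805, adjusted 0.829), followed by Has2 (0.0424, adjusted 0.986). Between the Twist1 and Cdh5 gates alone 3 genes passed (0.0214%), again with 0 matrix genes, and Postn had the smallest p (0.029). In the interaction over the 6 gates, 2 matrix genes had an unadjusted p under 0.05 by edgeR, and in the latter 1, where 4.84% and 4.73% of all genes did.

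Has2 had a log2 fold change of 0.47 (SE 0.17, adjusted p 0.444) in the Myl2 cardiomyocyte gate, from 5.42, 4.58, 6.71 and 6.81 normalized CPM, and of 0.57 (SE 0.23, adjusted p 0.995) in the cardiomyocyte gate without Myl2. Without Ho1 these values were 0.48 and 0.28. Adamts1 was at 26.9, 28.5, 30.3 and 40.5 normalized CPM in the Myl2 cardiomyocyte gate and at 55.8, 62.0, 79.6 and 67.6 in the Cdh5 gate. The Ho libraries were the higher pair in both, with log2 fold changes of 0.34 (SE 0.14) and 0.32 (SE 0.11). The adjusted p-values in edgeR were 0.469 and 0.91, and the fold changes without Ho1 were 0.54 and 0.19. In the Myl2 cardiomyocyte gate Ho1 lay only just above Wt2, so that the size of the difference there rested largely on Ho2. Cd44 was at 3.89, 6.29, 9.03 and 8.45 normalized CPM in the Twist1 gate. Its log2 fold change of 0.79 (SE 0.28, unadjusted p 0.0301, adjusted p 0.944) was 0.74 without Ho1. In the Tbx20 cells of this gate, described below, it was 0.31 (SE 0.18, adjusted p 0.952). Postn in the Stmn4 gate was at 222, 213, 341 and 220 normalized CPM, where only Ho1 stood above the others, and its log2 fold change of 0.38 (SE 0.17, adjusted p 0.901) was 0.02 without Ho1. In the Crabp1 gate Has2 (2.93, SE 0.99), Tgfbi (2.14, SE 0.61) and Fn1 (1.33, SE 0.57) had unadjusted p-values under 0.05 in edgeR. Ho1 contributed only 7 cells with 9 UMIs of Has2, and without it the values were 1.62, 1.25 and 0.39. The outflow markers of this gate summed to 247, 1132, 3367 and 2545 CPM and the cushion markers to 731, 708, 1263 and 788 CPM, both higher in the Ho pair. Its pharyngeal markers were lower in that pair, at 2215, 1982, 1904 and 1802 CPM. The part of these markers in the values was not tested.

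**Figure D4:**
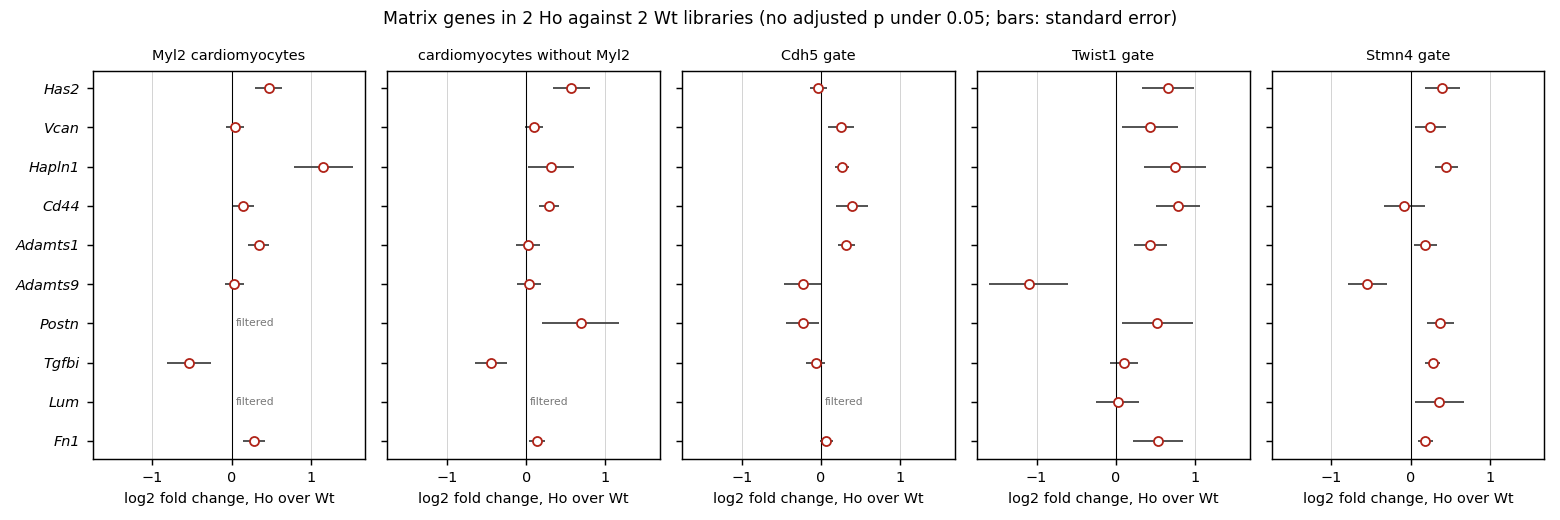
Log2 fold changes of the matrix genes between 2 Ho and 2 Wt libraries, with standard errors as bars and 1 panel for each gate except the Crabp1 gate. No gene passed the threshold, and most points lie to the right of 0, with medians from 0.07 in the Cdh5 gate to 0.48 in the Twist1 gate.

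The 6 lists of related genes gave between 0 and 3 genes per list and gate with an unadjusted p under 0.05 between Ho and Wt, a threshold that 4.06% to 9.12% of all tested genes met in the 6 gates. In the Myl2 cardiomyocyte gate the smallest p belonged to the matricellular gene Tnc (log2 fold change −0.96, adjusted p 0.151) and in the cardiomyocyte gate without Myl2 to elastin, Eln (−1.56, adjusted p 0.283). In the Cdh5 gate it belonged to Thbs1 (0.55, adjusted p 0.785), and in the Crabp1 gate to Fbn1 (2.96, adjusted p 0.447). The integrin subunit Itga9 had the smallest p in both the Twist1 (0.78, adjusted p 0.944) and the Stmn4 gate (0.46, adjusted p 0.888). None of these 6 values passed. Without Ho1 they were −0.67 for Tnc, −1.09 for Eln, 0.48 for Thbs1, 1.54 for Fbn1 and, for Itga9, 0.89 in the Twist1 and 0.38 in the Stmn4 gate, and that of Eln then passed (adjusted p 0.0385).

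In the Twist1 gate the 2 libraries of a genotype lay far apart for several genes. Has2, Vcan, Hapln1, Postn and Fn1 each had their lowest level in Wt1 and their highest in Ho1, and their log2 fold changes between Ho and Wt were 0.66 (SE 0.33), 0.43 (SE 0.35), 0.75 (SE 0.39), 0.53 (SE 0.45) and 0.53 (SE 0.31). Without Ho1 these values were 0.16 for Has2, −0.054 for Vcan, 0.30 for Hapln1, −0.046 for Postn and 0.20 for Fn1, so that Vcan and Postn changed sign. Markers of several cell types moved with them. Tbx20, a transcription factor of cushion mesenchyme and myocardium, was at 78.7, 171, 239 and 144 CPM in it, and 32.6%, 64.9%, 86.1% and 59.3% of its cells held a Tbx20 UMI. Sox9 was at 69.1, 121, 152 and 93.1 CPM. The markers of pharyngeal and other mesenchyme, 6 genes of which 2 were raised in the gate, moved in reverse and summed to 399, 166, 33.5 and 168 CPM, with Crabp1 as the most abundant at 260, 100, 16.1 and 88.2 CPM. The cushion list summed to 990, 1309, 1424 and 1197 CPM. Other lists had no common order. The 5 outflow markers summed to 794, 1571, 692 and 1229 CPM and the 4 epithelial markers to 68.1, 97.9, 8.46 and 82.4 CPM, both lowest in Ho1, and the 5 epicardial markers to 49.9, 98.1, 107 and 149 CPM. Markers of muscle and endothelium, none of them raised in the gate, were lowest in Wt1 and highest in Ho1. The 7 cardiomyocyte markers summed to 190, 390, 639 and 444 CPM, with Myl7 the most abundant. The 6 endothelial markers summed to 130, 206, 288 and 200.5 CPM, led by Egfl7, and the 2 endocardial ones to 17.5, 29.2, 47.9 and 34.9 CPM, led by Nfatc1. The part of these markers in the fold changes of the gate was not tested.

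The gate was therefore split by Tbx20, a choice made after these values had been seen. The 605, 716, 770 and 502 cells with a Tbx20 UMI had 717, 756, 908 and 774 CPM of Hapln1 and 498, 528, 631 and 447 CPM of Vcan. The cells without it had 43.8, 113, 551 and 111 CPM of Hapln1 and 126, 263, 308 and 170 CPM of Vcan. For Hapln1 the libraries thus lay close together among Tbx20 cells, whereas Ho1 stood far above the other 3 among the rest. Fn1 was at 554, 598, 677 and 598 CPM, Has2 at 91.9, 83.8, 113 and 77.9 CPM and Postn at 83.0, 97.6, 107 and 76.8 CPM in the Tbx20 cells. Cd44 was at 8.93, 8.46, 9.55 and 11.9 CPM in them, and at 1.17, 2.06, 3.91 and 3.53 CPM in the cells without Tbx20. Between Ho and Wt, Hapln1 differed there by 0.21 on the log2 scale (SE 0.10), Vcan by 0.09 (SE 0.15) and Fn1 by 0.16 (SE 0.09). With edgeR 0 genes passed in these cells, and Adamts1 was the 1 matrix gene with an unadjusted p under 0.05 (0.25, SE 0.10, p 0.0276, adjusted p 0.952), where 4.93% of all tested genes met that threshold. Without Ho1 the values in the Tbx20 cells were 0.06 for Hapln1, −0.21 for Vcan, 0.05 for Fn1, 0.45 for Cd44 and 0.25 for Adamts1. With all 4 libraries, the fold changes of Hapln1, Vcan, Fn1 and Cd44 were smaller than in the whole gate. Differences in make-up and in genotype cannot be told apart in the whole gate.

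**Figure D5:**
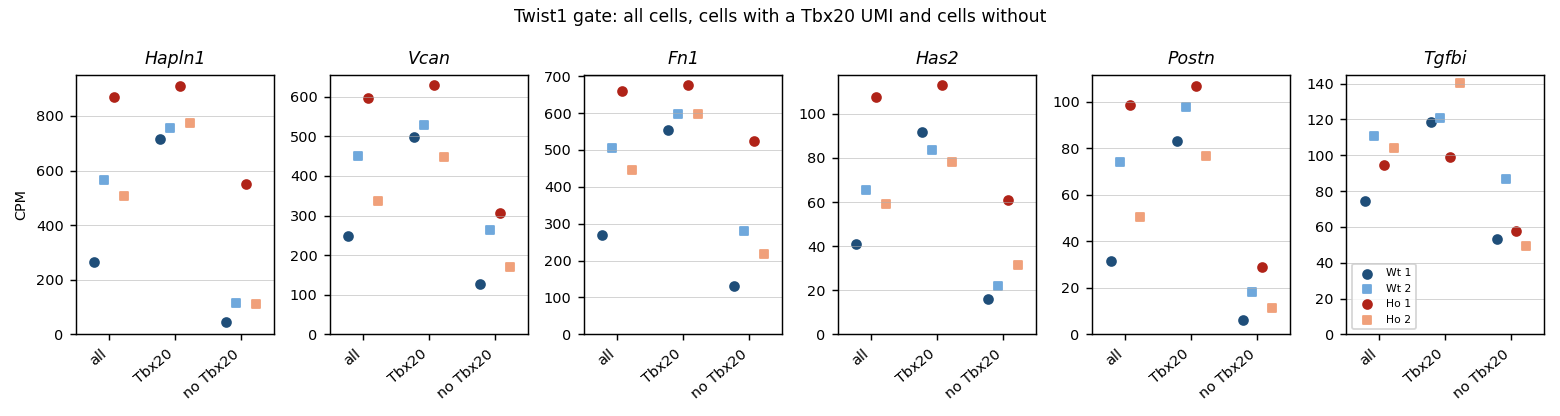
CPM of 6 genes in all cells of the Twist1 gate, in its cells with a Tbx20 UMI and in those without, 1 point per library. Among Tbx20 cells Hapln1 lies between 717 and 908 CPM in the 4 libraries, and among cells without Tbx20 it lies between 43.8 and 551 CPM.

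Adamts9 moved against the other genes in the Twist1 gate. It was at 12.9, 18.5, 3.51 and 11.0 normalized CPM, the Ho pair again being lower with no overlap, and the log2 fold change was −1.10 (SE 0.50, unadjusted p 0.07, adjusted p 0.944). It was also lower in both Ho libraries in the Stmn4 gate, at 13.15, 16.9, 8.51 and 13.0 normalized CPM (−0.55, SE 0.25, adjusted p 0.901), although Ho2 was hardly below Wt1 and the value without Ho1 was −0.23. In the Tbx20 cells Adamts9 was at 8.68, 11.9, 2.60 and 9.37 CPM, where Ho2 overlapped the Wt libraries and Ho1 was far below them. In the cells without Tbx20 it was at 14.1, 36.8, 11.0 and 13.6 CPM, with the Ho pair lower, although Ho2 was hardly below Wt1. Ho1 was the lowest library in all of these groups, and without it the value in the Twist1 gate was −0.51.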

How the data were processed

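Hearts at E10.5 were dissociated, and 3′ droplet libraries were made for 2 Wt and 2 Ho samples. The authors aligned reads to mm10 with Cell Ranger 6.1.1 and deposited raw UMI counts per gene and barcode, before their filters in Seurat 4.1.0. The stated limits were applied to these counts (at most 20% mitochondrial UMIs, 500 to 50000 UMIs and 500 to 6000 genes). In place of DoubletFinder, the cells with the highest Scrublet scores (scanpy 1.11.5) were removed, in the number that the droplet system is expected to give, which were 746, 464, 440 and 334 cells. The automatic Scrublet threshold would have removed 270, 209, 382 and 119.

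Gates were applied in the order Stmn4, Crabp1, Twist1 within mesenchyme, and 457, 663, 760 and 516 cells that met more than 1 lineage and 2688, 1106, 594 and 1269 that met none entered no gate. UMIs were summed per gate and library and compared with edgeR 4.0.16 (R 4.3.3), its low-count filter, TMM normalization, quasi-likelihood test and adjustment by Benjamini and Hochberg across every tested gene, at 0.05. The paper's per-cell likelihood ratio test was not used, since cells of 1 library are not replicates. CPM are per 1000000 UMIs of a gate, and normalized CPM use TMM. For shares of cells, 95% intervals are exact (Clopper-Pearson) and 0 counts were set a limit of 3 counts, both for counting error only. Gene positions come from GENCODE M21 (GRCm38). The tests were also run on simulated counts, drawn with the same dispersion for every gene and no difference in make-up between libraries.

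The 10 genes, the gates, the 6 lists of 73 related genes and the tests were chosen with earlier results of these data known. All 10 genes were named, with the gates in which they were highest or set apart. From the lists, the 2 genes per list with the largest change among those that passed were named between the Twist1 and Cdh5 gates, and the 1 with the smallest p per gate between Ho and Wt. For likeness, the 2 genes with the highest r over the 24 sums were named. Alternatives were DESeq2 1.42.0, RLE normalization, no filter, the replicate number or no library as a block, leaving out each library, stricter and looser gates, at most 10% mitochondrial UMIs, doublets kept, and thinning to 5000 UMIs or none. Cells below the number thinned to were left out of shares. The Tbx20 split, with and without Ho1, and the crossed replicate numbers were chosen after seeing the data.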

Additional observations from a re-analysis of the deposited data

Results flagged for a closer look

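Cells with at least 2 UMIs of both Cdh5 and Twist1 entered no comparison. For 2 of 20 values looked at outside the comparisons, the 10 genes in these cells and in cells of no gate, Ho1 and Ho2 were both higher than either Wt library. Both were in the Cdh5 and Twist1 cells, where 13.9% of all genes with at least 10 UMIs had this order, against 2 of the 9 matrix genes with as many. In cells of no gate it was 9.06% of all genes and 0 of 10. Cd44 was at 4.68 and 3.53 CPM in Wt1 and Wt2 and at 5.45 and 6.44 CPM in Ho1 and Ho2, a mean of 5.95 CPM in Ho. Tgfbi was at 22.6 and 23.3 CPM in the Wt libraries and at 25.7 and 35.6 CPM in the Ho libraries, a mean of 30.6 CPM in Ho. Neither difference was tested.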

How the results depend on the processing

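The 22 log2 fold changes of matrix genes between Ho and Wt followed here gave 287 values under alternatives, of which 268 kept direction and side of the threshold, 14 passed it and 5 reversed. The 40 called or named differences between gates gave 480 values, of which 461 kept both, 16 lost the call, 2 gained it and 1 reversed. Has2 (−0.18), Vcan (−0.21) and Postn (−0.24) reversed in the Tbx20 cells of the Twist1 gate without Ho1, an alternative chosen after seeing the data, in which 38 genes and 0 matrix genes were called. The other reversals were Vcan in the Twist1 gate between Ho and Wt without Ho1 (−0.054, with a range over left-out libraries of −0.21 to 0.85 with that one), Postn in the same comparison (−0.046, with a range of −0.24 to 1.19) and Hapln1 between the Twist1 and Cdh5 gates without Ho1 (−0.012, with a range of −0.012 to 0.46, and 0.51 with stricter gates, where it passed). The 14 values that passed were, without Ho2, Hapln1 in the Myl2 cardiomyocyte gate (1.64), Adamts1 in the Cdh5 gate (0.43), Adamts9 in the Twist1 gate (−2.16) and Hapln1 and Postn in the Stmn4 gate (both 0.65), and with no filter Hapln1 in the Myl2 cardiomyocyte gate (1.17), Adamts9 in the Twist1 gate (−1.13) and Hapln1 in the Stmn4 gate (0.44). The other 6 were in the Crabp1 gate, with Has2 (3.39) and Tgfbi (2.72) without Wt2, Tgfbi (2.13) with the replicate block, and Has2 (2.65), Tgfbi (2.08) and Fn1 (1.33) with crossed numbers as a block. With 1 library in a group, that library is assumed to vary like the others.

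Counts of all genes called between Ho and Wt depended on the setting far more. In the Myl2 cardiomyocyte gate the count of 10 became 24 with DESeq2, where 11 were higher and 13 lower against 7 and 3, 162 with no filter, 73 with the replicate block and 53 to 207 when 1 library was left out, with 1 matrix gene passing without a filter and 0 to 2 with a library left out. In the cardiomyocyte gate without Myl2 the count of 4 became 0 with no filter or doublets kept, 11 with the replicate block, 10 with looser gates and 45 to 136 with a library left out (0 to 1 matrix genes). In the Cdh5 gate the count of 0 became 19 with DESeq2, 222 with no filter and 0 to 277 with a library left out (0 to 2 matrix genes). In the Twist1 gate it became 14 with DESeq2, 154 with no filter (1 matrix gene), 1 with doublets kept and 0 to 72 with a library left out (0 to 1). In the Stmn4 gate it became 2 with DESeq2, 86 with no filter (1 matrix gene), 29 with the replicate block, 1 with stricter gates and 20 to 215 with a library left out (0 to 4). In the Crabp1 gate the count of 4 became 10 with DESeq2, 0 with RLE, stricter gates, looser gates or doublets kept, 29 with no filter, 19 with the replicate block (1 matrix gene, Tgfbi at 2.13) and 1 to 49 with a library left out (0 to 2). The cause of these shifts was not tested. Leaving out Ho2 gave the highest count in 5 of the 6 gates.

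Replicate numbers pair no animals in the labels. Deviations of libraries with the same number correlated at 0.04, −0.055, −0.08, −0.32, 0.05 and −0.19 over genes in the Myl2 cardiomyocyte, non-Myl2 cardiomyocyte, Cdh5, Twist1, Stmn4 and Crabp1 gates. With so few libraries, such values cannot show whether those with the same number shared a litter or a batch. With crossed numbers as a block, 12 genes and 0 matrix genes were called in the Twist1 gate and 116 and 3 in the Crabp1 gate.

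Between gates, leaving out a library gave 2380 to 3358 genes for Stmn4 against Twist1, 398 to 1391 for Crabp1 against Twist1 (3 to 6 matrix genes, fewest without Wt1) and 2818 to 4702 between the cardiomyocyte gates. The genotype effect differing between the 6 gates was called for 580 genes (5 matrix genes) with no filter, 0 with stricter or looser gates and 0 to 40 with a library left out. Between the Twist1 and Cdh5 gates it was called for 165 genes (2 matrix genes) with no filter, 0 with stricter or looser gates and 0 to 16 with a library left out. Of 60 pairs of matrix gene and gate, 21 had a UMI in at least 10% of cells after thinning to 2000 UMIs and 41 without thinning. The mean shares of Lum, Cd44 and Adamts9 stayed under 10% in every gate after thinning to 2000 UMIs. The 2 libraries a group limit every genotype comparison.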

Other observations

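The 243, 381, 468 and 245 cells with both Cdh5 and Twist1 (Wt1, Wt2, Ho1 and Ho2) were a group chosen after values had been seen. In this group Vcan and Tgfbi overlapped neither the Cdh5 nor the Twist1 gate. The median depth of these cells was 14476, 17241, 17488.5 and 17642 UMIs, and doublets among them were not separated further. Hapln1 was at 636, 567, 598 and 735 CPM, above every library of the Cdh5 gate (366 to 452 CPM) and within the range of the Twist1 gate (265 to 870 CPM). Vcan was at 189, 148, 172 and 154 CPM, between the Cdh5 gate (40.3 to 56.8 CPM) and the Twist1 gate (248 to 597 CPM) with no overlap. Has2 was at 53.9, 39.1, 52.4 and 37.8 CPM, above the Cdh5 gate in all 4 libraries and below the Twist1 gate in Wt2, Ho1 and Ho2. Fn1, at 955, 978, 948 and 1069 CPM, was below the Cdh5 gate of the same library in each case, with overlapping ranges (982 to 1095 CPM in that gate). Postn was at 12.5, 18.6, 21.5 and 16.2 CPM, in or below the range of the Cdh5 gate, 13.6 to 22.0 CPM. Tgfbi was at 22.6, 23.3, 25.7 and 35.6 CPM, between the Cdh5 gate (16.5 to 19.1 CPM) and the Twist1 gate (74.7 to 111 CPM) with no overlap. Hapln1, Vcan, Has2 and Tgfbi thus exceeded the Cdh5 gate in these cells in all 4 libraries. The 2688, 1106, 594 and 1269 cells that met no gate had 70.6, 175, 357 and 85.1 CPM of Hapln1 and 249, 503, 721 and 267 CPM of Fn1, again highest in Ho1. Tbx20 was also highest in Ho1 there, at 31.1, 75.7, 112 and 37.3 CPM. Lowest in Ho1 were Crabp1 (217, 114, 16.4 and 101 CPM), Isl1 (147, 225, 19.0 and 155 CPM) and Foxf1 (47.6, 25.3, 1.08 and 109 CPM). The part of this make-up in the levels of Hapln1 and Fn1 was not tested.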
